A study of Sus scrofa with 9 samples.

Results

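The comparison described here is between cells labelled as porcine immature Sertoli cells at 36 h of recovery and the same kind of cells at the end of a heat exposure. It covers every gene with at least 1 FPKM (fragments per kilobase of gene, scaled to library size) in at least 3 of the 6 libraries. That rule kept 11349 of the 20681 genes in the deposited table. Of these, 548 passed through the 36 h libraries alone and 114 through the end-of-heat libraries alone. Such a gene had to differ between the groups, so counts over genes that passed describe them and are not support.

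The source tissue was porcine testis of 80 to 90 days of gestation. The cells were kept at 37 °C in medium with 10% fetal bovine serum under 5% CO2, and had been seeded 6 h earlier when heat began. In the HS0.5 group the exposure was 0.5 h at 43 °C, with RNA collected directly afterwards (0 h). The HS0.5-R36 group had that same heat and then 36 h at 37 °C, and a control group that was not heated enters no test here. Each group had 3 libraries of total RNA. No unheated library of the later time was used, so recovery from heat and 36 h of further culture cannot be told apart. The labels do not say that replicates were separate cultures or animals, so a p-value here reflects the variation among libraries alone, and that variation could be technical. In bulk RNA, fewer cells of a type and less RNA per cell cannot be told apart.

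Sertoli cells are the somatic cells of the seminiferous tubule. They nurse germ cells, form the blood-testis barrier with their tight junctions and divide before puberty. Heat unfolds proteins, and the heat shock factor HSF1 then drives transcription of chaperone genes, while general transcription and translation are held back. Chaperones bind HSF1 again as folding recovers, which closes the response.

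The 6 libraries held 18413428 to 20652505 reads recovered from the FPKM values. HS0.5-R36 replicate 1 stood apart: its log2 levels correlated with those of the other 2 recovery libraries at 0.985, against 0.9945 between those 2. The first principal component separated the groups and held 89.6% of the variance. Of the defining Sertoli markers, INHA, DMRT1 and NR5A1 were under 1 FPKM on average, whereas SOX9, WT1, AMH, CLU and VIM passed. The 6 measured markers of kidney and Wolffian duct tubule all passed. The labelled cell type is therefore in doubt from these markers: defining Sertoli genes were near 0 while tubule genes were expressed in every group. Of the markers chosen, 8 of 11 Sertoli and 6 of 9 tubule ones were in the deposited table. A value near 0 there need not mean that a gene is silent. At the end of heat GAPDH, of glycolysis, averaged 0.398 FPKM. The chaperonin subunit CCT2 averaged 0.198 FPKM, and CCT8, another subunit, 165 FPKM. Summed FPKM of the Sertoli markers was 6701 to 6805 at the end of heat and 4019 to 4450 at 36 h, and that of the tubule markers was 78.9 to 85.9 and 211 to 218. VIM and CLU make up nearly all of the Sertoli sum, and VIM fell while CLU did not pass the test. Fibroblast and myoid markers summed to 7.53 to 8.70 and 2.28 to 3.06 FPKM, endothelial markers to 1.01 to 1.32 and 0.187 to 0.335, and immune markers to 3.73 to 4.39 and 5.14 to 6.46. These sums rest on few genes: of the measured markers, 2 of 6 fibroblast and myoid, 0 of 3 endothelial and 2 of 3 immune ones passed the filter. Leydig markers summed to 2.43 to 2.78 and 3.59 to 4.95 FPKM, and epithelial markers to 749 to 766 and 564 to 689. Of 3 measured Leydig markers 2 passed, and 1 of them, CYP11A1, went from a mean of 0.0818 to 1.95 FPKM. In a longer list of Leydig and steroidogenic markers, 1 rose and 2 fell of 4 tested (1 and 1 after rescaling to the same sum). The germ cell marker in the table, DDX4, stayed at or below 0.0244 FPKM. The part that other cell types play in the results was not tested.

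At 36 h, 8247 genes differed from the end of heat (72.7% of those tested; limma on log2(FPKM + 1), Benjamini-Hochberg adjusted p under 0.05). Of these, 3693 were higher (32.5%) and 4554 lower (40.1%). A change of at least 2-fold was seen in 880 genes that rose (7.75%) and 1002 that fell (8.83%), and one of at least 4-fold in 63 and 81. The 3 libraries of one group all lay outside the range of the other group for 8569 genes (75.5%). Differences below are of log2(FPKM + 1), 36 h minus end of heat, which understates the change of weakly expressed genes.

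The balance of rises and falls depended on scaling. The deposited values imply library sizes of 1.17 to 1.19 times the recovered reads at 36 h and 0.902 to 0.934 times at the end of heat. With the deposited scaling the median difference of all genes was -0.06 and 44.8% of the calls were rises. With every library brought to the same sum of FPKM the median was 0.23, a shift of 0.29, and 66.7% of the calls were rises (49.1% of genes higher, 24.5% lower). All 3693 genes called higher were also higher after rescaling, 2777 genes were called lower under both scalings, and 30 genes were called in opposite directions. Counts for gene lists are therefore given for the deposited scaling and then after this rescaling.

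**Figure D1:**
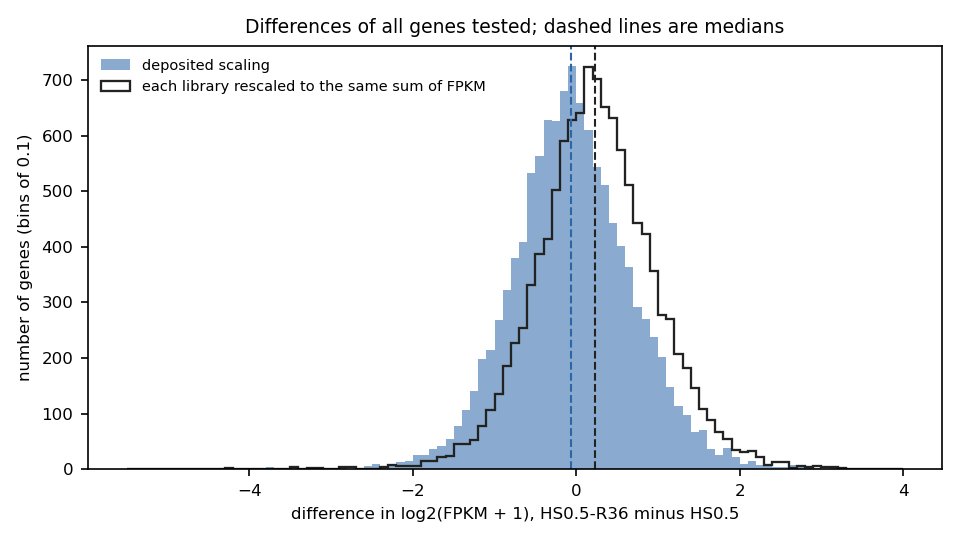
Number of genes (bins of 0.1) by difference in log2(FPKM + 1), 36 h minus end of heat, for the 11349 genes tested, with the deposited scaling (filled) and after every library was rescaled to the same sum of FPKM (outline). Dashed lines mark the medians, -0.06 and 0.23: the shape is kept and the whole distribution moves to the right.

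Genes of the heat shock response were among those that fell furthest. HSPA6, a strictly inducible HSP70 chaperone, stood at 37.3, 24.0 and 75.2 FPKM at the end of heat and at 0.0724, 0.178 and 0.0535 FPKM at 36 h. Its 3 end-of-heat libraries varied among themselves more than those of most genes, yet every one lay far above every recovery library. The difference was -5.25 ± 0.35 (SE, n = 3 against 3; limma adjusted p = 8.6e-06), the largest fall of any gene tested. The gene lies on chromosome 4 from position 88970591 to 88985586 in the deposited coordinates. Its control mean was 0.0272 ± 0.0103 FPKM (SD, n = 3).

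HSP70.2, an inducible HSP70 gene, measured 249, 182 and 319 FPKM at the end of heat and 17.9, 21.8 and 23.3 FPKM at 36 h. HSP70 genes have near-identical copies, and reads could be split between them, so the level of each HSP70 gene is uncertain. DNAJB1, the J-domain partner that hands clients to HSP70, went from 181, 145 and 219 FPKM to 22.3, 25.7 and 24.7 FPKM. The groups were apart by more than 5-fold in every pair of libraries for both genes, and the control means were 12.9 ± 2.15 and 27.6 ± 3.62 FPKM (SD, n = 3). The differences were -3.48 ± 0.20 and -2.84 ± 0.14 (SE; limma adjusted p = 4.2e-06 and 2.5e-06).

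Several other HSP70 and HSP90 genes were lower at 36 h than in unheated cells, whose values are a description. HSPH1, the nucleotide exchange factor HSP110, went from 98.2 ± 27.0 to 22.2 ± 1.78 FPKM (SD, n = 3), with a control mean of 43.1 ± 2.41. HSP90AA1, the inducible cytosolic HSP90, measured 787, 786 and 956 FPKM at the end of heat and 198, 169.9 and 175 FPKM at 36 h, a difference of -2.21 ± 0.10 (SE; limma adjusted p = 1.7e-06). Its control mean was 529 ± 49.4 FPKM, so the recovery libraries were the lowest of the 3 groups. HSPA8, the constitutive HSP70, fell from 451 ± 49.0 to 259 ± 15.6 FPKM, and HSP90AB1, the constitutive HSP90, from 295 ± 29.1 to 135 ± 15.8. HSPB1, a small heat shock protein, averaged 321 FPKM and then 96.3, against 379 ± 151 in control. BAG3, an HSP70 co-chaperone, was at 25.5 ± 7.42 and 12.5 ± 0.584 FPKM, and its control mean was 11.3 ± 0.888. HSF1 itself fell from 26.0 ± 1.62 to 16.4 ± 1.71 FPKM (difference -0.64 ± 0.09, limma adjusted p = 0.000339).

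Of 32 listed heat shock factors and inducible cytosolic chaperones, 23 were tested. Of these, 18 fell and 1 rose, with a median difference of -0.76 against -0.06 over all genes. After rescaling to the same sum 14 fell and 5 rose. The single rise under the deposited scaling was DNAJB2, a J-domain protein known mainly from neurons, from 2.27, 2.46 and 1.93 FPKM to 5.96, 6.95 and 6.99 FPKM. Of the 15 HSP90 and co-chaperone genes 13 fell and 2 rose, with a median of -1.13, and 11 fell and 2 rose after rescaling. FKBP4, an HSP90-bound immunophilin, went from 176 ± 5.01 to 51.5 ± 5.24 FPKM.

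Other chaperone systems were less uniform. All 10 tested members of 14 listed for TRiC, the ring-shaped chaperonin that folds actin and tubulin, and for prefoldin, which delivers clients to it, fell, with a median of -0.94, and all 10 fell after rescaling. TCP1, a TRiC subunit, went from 63.5 ± 2.60 to 22.5 ± 1.12 FPKM and CCT8, another, from 165 ± 1.60 to 63.8 ± 0.701. Of 11 mitochondrial chaperones and proteases 8 fell and 1 rose, but after rescaling 4 fell and 3 rose, and the median went from -0.47 to -0.15. Among the falls HSPD1, the HSP60 subunit, measured 533, 539 and 560.1 FPKM at the end of heat and 215, 198 and 208 FPKM at 36 h. Its lid, HSPE1, went from 201 ± 15.6 to 81.1 ± 15.8 FPKM. Of 23 endoplasmic reticulum chaperones and unfolded protein response genes, 14 fell and 5 rose, with a median of -0.31. After rescaling 11 fell and 7 rose, with a median of 0.02. HSPA5, the HSP70 of that compartment known as BiP, fell from 739.8 ± 26.7 to 380.4 ± 6.61 FPKM. HERPUD1, which takes part in degradation of misfolded proteins there, rose from 10.0 ± 1.03 to 16.4 ± 0.120 FPKM.

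**Figure D2:**
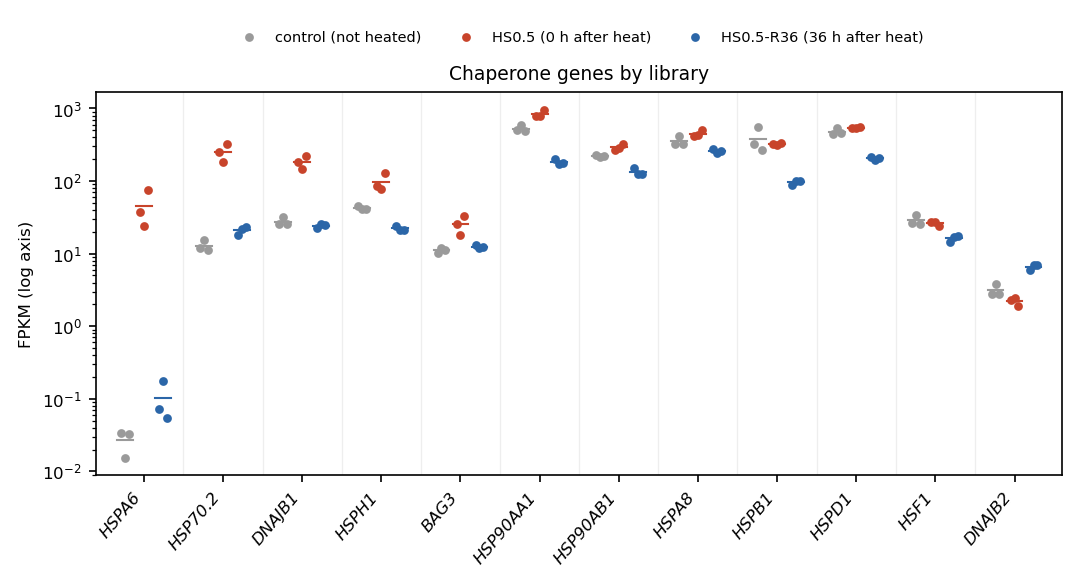
FPKM (log axis) of 12 chaperone and heat shock genes in every library of the control (grey), end-of-heat (red) and 36 h (blue) groups, where points are libraries and bars are means of 3. In every gene but DNAJB2 the 3 blue points lie below the 3 red points, and for HSP70.2, DNAJB1 and BAG3 they lie near the grey points.

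The next largest falls were in genes of growth factor and stress signalling. FOSL1, an AP-1 transcription factor subunit also called FRA1, measured 78.4, 77.7 and 76.3 FPKM at the end of heat and 2.62, 2.43 and 2.08 FPKM at 36 h. The libraries of each group nearly coincided and the groups were 32.6-fold apart in mean (difference -4.54 ± 0.07, SE; limma adjusted p = 6.1e-08). PHLDA1, a gene induced by receptor tyrosine kinase signalling, went from 87.8, 92.1 and 76.2 FPKM to 2.40, 2.98 and 3.06. Both stood near their end-of-heat level in unheated cells, at 64.3 ± 7.92 and 65.7 ± 7.68 FPKM (SD, n = 3).

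Of 22 tested immediate-early and AP-1 genes (27 listed), 15 fell and 2 rose, with a median of -1.07, and 14 fell and 3 rose after rescaling. FOS went from 13.4 ± 2.54 to 1.58 ± 0.161 FPKM, EGR1, a zinc finger early gene, from 27.9 ± 3.56 to 8.83 ± 0.341, and MYC, a driver of growth and division, from 119 ± 11.5 to 29.8 ± 1.13. JUN measured 2.65, 1.39 and 2.12 FPKM and then 1.36, 1.62 and 1.15, groups that overlapped, and did not pass (difference -0.34 ± 0.16; limma adjusted p = 0.0842), although it passed without HS0.5 replicate 2 (-0.51, adjusted p = 0.00969). All 15 tested genes of MAP kinase feedback fell, with a median of -1.66, and 14 fell after rescaling. Among them DUSP5, a phosphatase that turns off ERK, went from 94.8, 93.5 and 92.1 FPKM to 19.6, 19.1 and 20.1 FPKM, with a control mean of 55.8 ± 1.70.

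Of 21 tested cytokine and NF-kB genes 12 fell and 3 rose, with a median of -0.33. After rescaling 9 fell and 6 rose, with a median of -0.02. The largest falls in that list were in a few secreted proteins. IL11, a cytokine of the IL-6 family, measured 243, 209.7 and 144 FPKM at the end of heat and 7.87, 10.8 and 10.5 FPKM at 36 h (difference -4.20 ± 0.20; limma adjusted p = 1.9e-06). CXCL8, the neutrophil chemokine IL-8, went from 72.3, 81.4 and 81.8 FPKM to 4.41, 3.67 and 3.46. For both genes the lowest end-of-heat library was more than 10-fold above the highest recovery library. Among ligands of the EGF receptor HBEGF went from 61.1 ± 3.55 to 12.3 ± 0.219 FPKM and AREG from 15.9 ± 0.585 to 1.88 ± 0.342.

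Some genes of the plasminogen activator system also fell. PLAU, the urokinase that activates plasminogen, went from 186, 185 and 196 FPKM to 19.7, 21.2 and 21.0, and its receptor PLAUR from 105, 108 and 105 FPKM to 7.10, 6.64 and 7.49. SERPINE2, an inhibitor of serine proteases, went from 9.44 ± 0.645 to 0.338 ± 0.119 FPKM. The groups did not overlap in any of the 3 genes, and the differences ran from -2.96 to -3.73. F3, tissue factor, the trigger of coagulation, went from 308 ± 7.04 to 22.0 ± 1.43 FPKM. The list of matrix proteases and inhibitors as a whole did not move one way: of 18 tested, 9 fell and 7 rose, with a median of -0.22, and 9 fell and 9 rose after rescaling.

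Transcripts of the G-protein regulators RGS4 and RGS2, which speed the shut-off of G-protein signals, fell as well. RGS4 went from 266, 282 and 284 FPKM to 20.1, 18.4 and 19.6, and RGS2 from 24.2, 25.1 and 34.9 FPKM to 1.02, 1.90 and 1.59. PREX1, an exchange factor for the small GTPase Rac, went from 37.9 ± 0.909 to 3.32 ± 0.145 FPKM and ITGA8, the integrin α8 subunit, from 23.4 ± 0.339 to 1.77 ± 0.145. The groups did not overlap in any of the 4.

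YAP and TAZ are coactivators that enter the nucleus when cells are spread and under tension, and CCN1, CCN2 and ANKRD1 are among their best known targets. CCN2 measured 82.2, 81.3 and 76.7 FPKM at the end of heat and 5.03, 7.07 and 6.66 FPKM at 36 h (difference -3.49 ± 0.11; limma adjusted p = 5.4e-07). CCN1 went from 839 ± 44.1 to 217 ± 11.1 FPKM, ANKRD1 from 337 ± 17.6 to 67.6 ± 3.64 and THBS1, thrombospondin 1, from 2469.5 ± 42.8 to 740.2 ± 30.0. Of 20 tested targets (26 listed), 14 fell and 3 rose, with a median of -0.75, and 12 fell and 5 rose after rescaling. The control means of these 4 genes, 79.9, 814, 338 and 1948 FPKM, lay closer to the end-of-heat than to the recovery level.

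Of 28 tested contractile and actin genes (33 listed), 24 fell and 3 rose, with a median of -0.97, and 22 fell and 4 rose after rescaling. TAGLN, transgelin, went from 672, 639 and 615 FPKM to 114, 139.6 and 155. ACTG1, cytoplasmic γ-actin, went from 6839.6 ± 281 to 2136 ± 43.8 FPKM, ACTN1, the cross-linker α-actinin 1, from 284 ± 5.13 to 71.3 ± 1.74 and MYH9, non-muscle myosin, from 197 ± 6.24 to 60.3 ± 4.08. The smooth muscle actin gene ACTA2 was under 1 FPKM on average and was not tested. Tubulin genes, a group chosen after values were seen, fell in 8 and rose in 2 of 10 cases, and 7 fell and 2 rose after rescaling. TUBB6, a β-tubulin, moved furthest among them, from 13.2, 12.3 and 12.4 FPKM to 1.37, 1.49 and 1.42.

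Genes of cell division fell almost without exception. Of 54 genes of DNA replication and G1/S, 52 fell and 1 rose, and of 44 tested genes of G2/M and mitosis 43 fell and none rose. The medians were -1.13 and -1.09, and after rescaling to the same sum 47 and 42 fell and 1 rose in each list. Without HS0.5-R36 replicate 1, 52 and 43 fell.

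MCM5, a subunit of the replicative helicase, measured 55.5, 52.6 and 46.8 FPKM at the end of heat and averaged 22.7 FPKM at 36 h. PCNA, the sliding clamp of DNA polymerase, went from 50.4 ± 1.78 to 18.5 ± 0.735 FPKM. CDK1, the kinase that starts mitosis, went from a mean of 20.8 FPKM to 9.06, 8.88 and 10.3 FPKM. Its cyclin CCNB1 fell from 108 ± 0.615 to 34.8 ± 2.02 FPKM and TOP2A, which untangles chromosomes, from 118 ± 9.26 to 42.9 ± 5.27. ANLN, the cytokinesis scaffold anillin, fell furthest of the mitotic list, from 69.7 ± 7.95 to 13.8 ± 1.40 FPKM. The groups did not overlap in any of these 6 genes. RPA3, a subunit of the single-strand binding protein, was the exception, at 41.5 ± 3.39 and 66.4 ± 6.05 FPKM.

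Of 29 genes of growth arrest and the p53 response, 17 rose and 8 fell, 9 of the rises and 3 of the falls at least 2-fold, and 4 of the 29 passed the filter through the 36 h libraries alone. After rescaling 19 rose and 5 fell. The p53 target CDKN1A, which encodes the CDK inhibitor p21, measured 137, 135 and 128 FPKM at the end of heat, below the control mean of 187 ± 16.7. At 36 h it measured 183, 203 and 209.8 FPKM (difference 0.57 ± 0.07; limma adjusted p = 0.000171), near that control mean. CDKN1B, which encodes p27, measured 17.2, 16.6 and 21.3 FPKM and then 21.1, 24.1 and 23.1. Its groups overlapped in 1 library, and its call (0.30 ± 0.10, limma adjusted p = 0.0276) was lost when the trend with gene length was removed (0.26, adjusted p = 0.0557), with no filter, and without HS0.5 replicate 1 or 2 or HS0.5-R36 replicate 2 or 3 (adjusted p from 0.0743 to 0.101).

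Other members of that list had larger rises. CCNG2, an atypical cyclin of arrested cells, measured 0.454, 0.489 and 0.508 FPKM at the end of heat and 4.39, 4.66 and 4.59 FPKM at 36 h. KLF9, a Krüppel-like factor induced by glucocorticoid and thyroid hormone, went from 0.383 ± 0.0627 to 3.97 ± 0.0781 FPKM. SESN3, a sestrin that dampens mTORC1, went from 0.726 ± 0.0917 to 4.26 ± 0.199 FPKM. All 3 were at or below 1 FPKM in every end-of-heat library, so they passed the filter through the 36 h libraries. TP53INP1, a stress-induced p53 cofactor, went from 9.66, 10.3 and 9.31 FPKM to 37.5, 35.5 and 34.9, TOB1, an antiproliferative protein, from 6.00 ± 0.232 to 15.9 ± 0.343 and RBL2, the pocket protein p130 of resting cells, from 3.67 ± 0.311 to 9.51 ± 1.02. MXD4, an antagonist of MYC, was among the 15 largest rises of genes with a symbol and a mean of at least 10 FPKM at 36 h, from 8.46, 7.11 and 5.82 FPKM to 35.0, 42.2 and 44.4. In the other direction PLK2, a p53-inducible polo-like kinase, fell from 222 ± 11.8 to 40.8 ± 1.42 FPKM and GADD45B from 34.6 ± 1.03 to 9.39 ± 0.379.

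All 31 nucleolar ribosome biogenesis genes fell, 24 of them at least 2-fold, with a median of -1.41, and 29 fell after rescaling to the same sum. NOP56, a core protein of box C/D snoRNPs, measured 187, 200.4 and 206 FPKM at the end of heat and 47.0, 48.4 and 49.5 FPKM at 36 h. NCL, nucleolin, went from 661 ± 27.2 to 176 ± 6.61 FPKM, DKC1, the pseudouridine synthase dyskerin, from 67.5 ± 3.62 to 17.1 ± 0.647 and LYAR, a nucleolar growth regulator, from 22.4 ± 0.245 to 4.23 ± 0.319. Of 37 spliceosome and hnRNP genes, 34 fell and none rose, against 29 and 1 after rescaling, and HNRNPA1, an abundant hnRNP, went from 505 ± 4.54 to 174 ± 3.32 FPKM. Of 27 translation factor genes 21 fell and 1 rose, and after rescaling 18 fell and 6 rose. EIF4A1, the helicase of translation initiation, went from 461, 467 and 443 FPKM to 169, 176 and 181.

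The cytosolic ribosomal protein genes did not follow. Of 49 tested, 13 fell, 2 rose and 34 did not pass, with a median of -0.01. RPL3, 1 of the rises, measured 758, 748 and 762 FPKM and then 859, 909 and 962 FPKM, a rise that was not called when all 9 libraries entered the fit. After rescaling to the same sum 32 rose and 1 fell. Proteasome genes fell in 29 of 31 cases under the deposited scaling but by little (median -0.54), and in 16 of 31 after rescaling. The 13 genes encoded in mitochondria were called lower in 2 cases with all libraries and in 9 cases when HS0.5-R36 replicate 1 was left out. Rescaled, 2 were called higher and none lower. Mitochondrial genes took 6.70% of the reads in that library and 4.46% and 4.74% in the other recovery libraries, against 4.58%, 5.32% and 6.04% at the end of heat.

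Of 19 aminoacyl-tRNA synthetase genes, whose products charge tRNAs with amino acids, 17 fell and 2 rose under both scalings, with a median of -0.90 and, rescaled, -0.57. TARS1, for threonine, went from 36.0 ± 1.54 to 15.3 ± 0.685 FPKM. The rises were QARS1, for glutamine, from 30.1, 29.5 and 28.2 FPKM to 41.4, 44.3 and 45.9, and KARS1, for lysine, from 148 ± 8.04 to 174 ± 9.50, a call lost with all 9 libraries in the fit (adjusted p = 0.114), with the replicate block (0.0506) and without HS0.5 replicate 1 (0.0546) or 2 (0.0673). The related list of the integrated stress response and amino acid supply split into 16 falls and 9 rises among 27 genes, and into 11 falls and 11 rises after rescaling, with medians of -0.40 and -0.08. With the deposited scaling the share of rises, 33.3%, was near the 32.5% over all genes. That of falls was 59.3%, against 40.1%. On the falling side were the amino acid transporters SLC7A5, from 67.5 ± 5.63 to 17.7 ± 1.92 FPKM, and SLC7A1, from 43.4 ± 1.21 to 11.8 ± 0.297, together with ATF4, the transcription factor at the centre of that response, from 114 ± 5.97 to 53.9 ± 2.92. On the rising side NUPR1, a small stress-induced chromatin protein, measured 2.75, 2.45 and 1.31 FPKM and then 17.9, 19.9 and 23.1 FPKM (difference 2.77 ± 0.18; limma adjusted p = 8.5e-06). CEBPB, a bZIP factor that partners with ATF4, went from 41.3 ± 5.68 to 110.0 ± 9.32 FPKM, SESN2, another sestrin, from 2.58 ± 0.00797 to 7.22 ± 0.149, and ATF3, a stress-induced repressor, from 4.17 ± 0.261 to 7.95 ± 0.227, against a control mean of 11.5 ± 0.180.

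**Figure D3:**
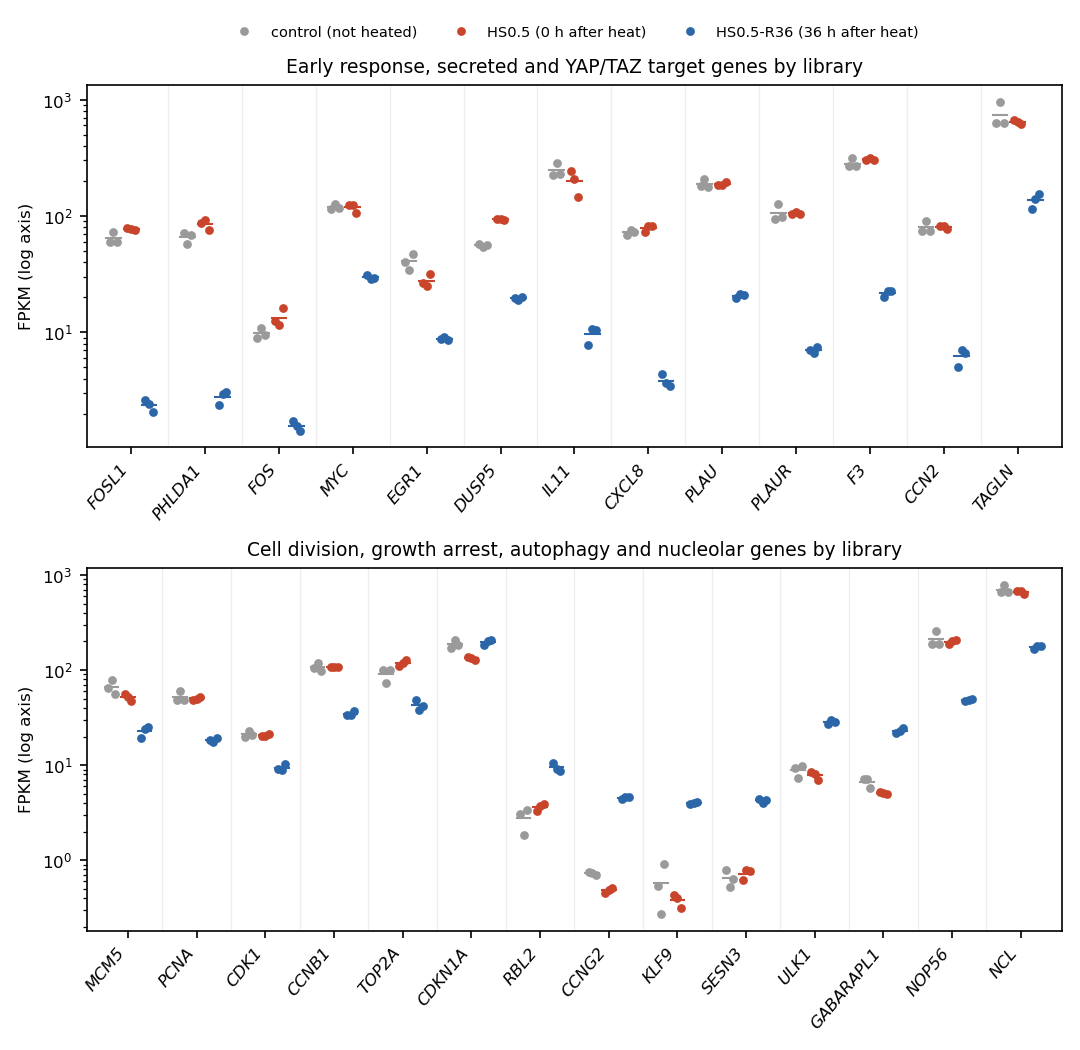
FPKM (log axis) in every library for 13 early response, secreted and YAP/TAZ target genes (top) and 14 genes of cell division, growth arrest, autophagy and the nucleolus (bottom), with points as libraries and bars as means of 3. In the top panel all blue points (36 h) lie below the red (end of heat). In the bottom panel the replication, mitotic and nucleolar genes lie lower at 36 h and CCNG2, KLF9, SESN3, ULK1 and GABARAPL1 lie higher.

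Autophagy degrades cell contents in lysosomes. Of 46 tested autophagy and lysosome genes (47 listed), 28 rose and 8 fell, 10 of the rises at least 2-fold and none of the falls, with a median of 0.41. After rescaling to the same sum 36 rose and 2 fell. GABARAPL1, an ATG8-family protein of the autophagosome membrane, measured 5.24, 5.12 and 4.96 FPKM at the end of heat and 21.7, 22.8 and 24.8 FPKM at 36 h. ULK1, the kinase that starts autophagy, went from 8.51, 8.04 and 6.91 FPKM to 27.2, 29.7 and 28.4. WIPI1, a phosphoinositide-binding scaffold, went from 1.19 ± 0.0927 to 5.60 ± 0.216 FPKM, ATG9A, a lipid scramblase, from 6.07 ± 0.00346 to 18.7 ± 0.546 and NBR1, a cargo receptor, from 9.29 ± 0.468 to 27.5 ± 1.80. Of the falls ATG3, an enzyme of ATG8 conjugation, was the largest, from 25.2 ± 1.16 to 14.7 ± 0.488 FPKM.

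Regulators of apoptosis moved in both directions, with 8 rises and 5 falls among 18, and 11 rises and 4 falls after rescaling. The shares with the deposited scaling were 44.4% higher and 27.8% lower, against 32.5% and 40.1% over all genes. BMF, a BH3-only protein that opposes BCL2, measured 0.825, 0.547 and 0.762 FPKM and then 9.87, 10.1 and 9.82 FPKM, and passed the filter through the 36 h libraries alone. BBC3, the p53 target PUMA, went from 2.77 ± 0.446 to 10.2 ± 1.98 FPKM. PMAIP1, the BH3-only protein NOXA, went the other way, from 17.8 ± 0.664 to 4.04 ± 0.164 FPKM.

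Of 25 tested genes of cholesterol synthesis and uptake, 16 rose and 3 fell, with a median of 0.43, and 23 rose and 1 fell after rescaling to the same sum. HMGCS1, the synthase that makes the substrate of HMG-CoA reductase, measured 26.3, 26.2 and 27.2 FPKM at the end of heat and 67.2, 63.5 and 66.4 FPKM at 36 h (difference 1.27 ± 0.05; limma adjusted p = 1.2e-06). SREBF2, the factor that drives these genes, went from 27.2 ± 1.65 to 44.4 ± 2.21 and SQLE, squalene epoxidase, from 33.4 ± 2.24 to 42.6 ± 2.53. INSIG1, which holds that factor in the endoplasmic reticulum when sterol is plentiful, stood at 5.41 ± 0.352 FPKM in control, 16.2 ± 0.495 at the end of heat and 26.4 ± 2.30 at 36 h. SCD, the Δ9 desaturase of fatty acids, rose from 26.6 ± 0.517 to 66.3 ± 0.895 FPKM.

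Of 35 listed Sertoli lineage genes and products 15 were tested, and 9 of these fell while 4 rose, with a median of -0.53, and 8 fell and 5 rose after rescaling. SOX9, the transcription factor that fixes the Sertoli fate, measured 7.93, 8.65 and 7.92 FPKM at the end of heat and 1.41, 1.02 and 1.31 FPKM at 36 h (difference -2.03 ± 0.09; limma adjusted p = 1.4e-06). WT1, a zinc finger factor of the gonad and kidney, went from 9.44, 9.81 and 10.2 FPKM to 3.76, 3.22 and 4.34. AMH, the hormone that removes the Müllerian duct in male fetuses, went from 21.3, 18.6 and 17.9 FPKM to 6.72, 8.67 and 8.87. The 2 groups did not overlap in any of the 3 genes, and the control means, 6.47, 7.96 and 22.3 FPKM, lay with the end-of-heat level.

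GDNF, the Sertoli factor that keeps spermatogonial stem cells, went from 2.11 ± 0.0933 to 0.123 ± 0.0583 FPKM and GJA1, the gap junction protein connexin 43, from 20.3 ± 2.19 to 3.03 ± 0.427. INHBB, a subunit of inhibin B and activin, went from 6.25 ± 1.03 to 1.65 ± 0.429 FPKM. CLU, clusterin, 1 of the most abundant Sertoli products, measured 2797, 2813 and 2748 FPKM and then 2849, 2852 and 3148 FPKM and did not pass (difference 0.08 ± 0.08; limma adjusted p = 0.366), although it passed as a rise after rescaling to the same sum (0.42). VIM, the intermediate filament vimentin, fell from 3920.0, 3955 and 3917 FPKM to 1158, 1285 and 1288.

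Of 26 tested tight junction and polarity genes, 11 rose and 10 fell, and 10 of the rises but 2 of the falls were at least 2-fold. The shares were 42.3% higher and 38.5% lower, against 32.5% and 40.1% over all genes. After rescaling 14 rose and 6 fell. CLDN8, a claudin of tight epithelia that lies on chromosome 13 from 193562074 to 193564168 in the deposited coordinates, was the largest rise of any gene tested. It measured 13.0, 12.2 and 12.7 FPKM at the end of heat and 140.1, 129 and 136 FPKM at 36 h (difference 3.32 ± 0.06; limma adjusted p = 7.4e-08), with a control mean of 17.0 ± 2.29. TJP3, the junction scaffold ZO-3, went from 2.31 ± 0.192 to 11.7 ± 0.554 FPKM, CLDN10, a paracellular ion channel, from 3.96 ± 0.329 to 13.0 ± 0.812 and CLDN2, a cation-selective claudin, from 0.178 ± 0.0406 to 3.11 ± 0.0867. CLDN1, a sealing claudin, went the other way, from 336, 365 and 377 FPKM to 145, 137 and 139. TJP1, the scaffold ZO-1, fell from 28.3 ± 1.56 to 16.9 ± 2.35 FPKM and PRKCI, the atypical protein kinase C of the polarity complex, from 66.6, 72.7 and 76.6 FPKM to 22.0, 18.2 and 19.9. Among epithelial markers CDH1, E-cadherin, fell from 30.3 ± 0.839 to 20.2 ± 1.44 FPKM and KRT18 from 98.0 ± 0.660 to 51.0 ± 1.51. KRT8, the partner of KRT18, measured 265, 256 and 233 FPKM and then 237, 333 and 346 FPKM, overlapped and did not pass (0.26 ± 0.14, limma adjusted p = 0.134), but passed without HS0.5-R36 replicate 1 (0.43, adjusted p = 0.00074).

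The list whose members rose most was that of kidney and Wolffian duct tubule markers, with 16 rises and 1 fall among 20 tested of 39 listed, 11 of the rises at least 2-fold. Its median was 1.12, and after rescaling to the same sum 17 rose and 1 fell. DIO1, a deiodinase that activates thyroid hormone in liver and kidney, measured 13.7, 12.4 and 13.4 FPKM at the end of heat and 96.8, 87.0 and 93.2 FPKM at 36 h. LRP2, megalin, the endocytic receptor of proximal tubule, went from 3.21, 2.95 and 3.26 FPKM to 30.0, 23.9 and 21.9. SLC34A1, the sodium-phosphate transporter of proximal tubule, went from 50.1, 47.5 and 44.9 FPKM to 153, 155 and 152. The 2 groups were far apart for each of these, and control means of 15.7, 2.99 and 55.4 FPKM lay with the end-of-heat level.

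Transcription factors in that list did not all rise. PAX2 went from 19.5 ± 1.54 to 45.6 ± 1.36 FPKM and SIM1 from 2.59 ± 0.171 to 8.48 ± 1.51. The adhesion protein CDH16, kidney-specific cadherin, went from 45.7 ± 1.75 to 113 ± 3.30 FPKM. ATP1B1, a subunit of the sodium pump, was the single fall, from 111 ± 6.79 to 54.9 ± 3.97 FPKM. EMX2, a homeobox factor of the urogenital system, stood at 44.6 and 40.7 FPKM on average and did not pass (difference -0.12 ± 0.08, limma adjusted p = 0.185). It passed as a fall without HS0.5 replicate 3 (-0.20, adjusted p = 0.0222) and had the opposite sign after rescaling (0.21). After quantile normalization EMX2 passed as a rise (0.27, limma adjusted p = 0.018). CUBN, cubilin, the partner of LRP2, measured 1.94, 1.92 and 2.02 FPKM and then 2.46, 2.14 and 1.76 and did not pass. Nor did the water channel AQP1, with 1.55 ± 0.393 and 1.78 ± 0.311 FPKM. CUBN passed as a rise after rescaling to the same sum (0.31, limma adjusted p = 0.0246) and with the length trend removed (0.21, 0.0437). It also passed after rescaling without mitochondrial and the 20 most abundant genes (0.29, 0.0469). AQP1 passed as a rise with library weights (0.24, limma adjusted p = 0.0401). After quantile normalization both differences were negative (-0.18 and -0.16). Some transport genes outside the list, picked after their values were seen, also rose. The organic cation transporter SLC22A2 went from 0.754 ± 0.117 to 9.70 ± 0.581 FPKM and PDZK1, a scaffold of apical transporters, from 2.53 ± 0.203 to 16.3 ± 2.17. SLC22A2 averaged under 1 FPKM at the end of heat and passed the filter through the 36 h libraries. SLC2A2 was among the solute carriers with the largest falls. Of 200 solute carriers tested, 79 were called higher and 59 lower (121 and 44 after rescaling). Through the 36 h libraries alone 20 of them passed, against 3 through the end-of-heat libraries alone.

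**Figure D4:**
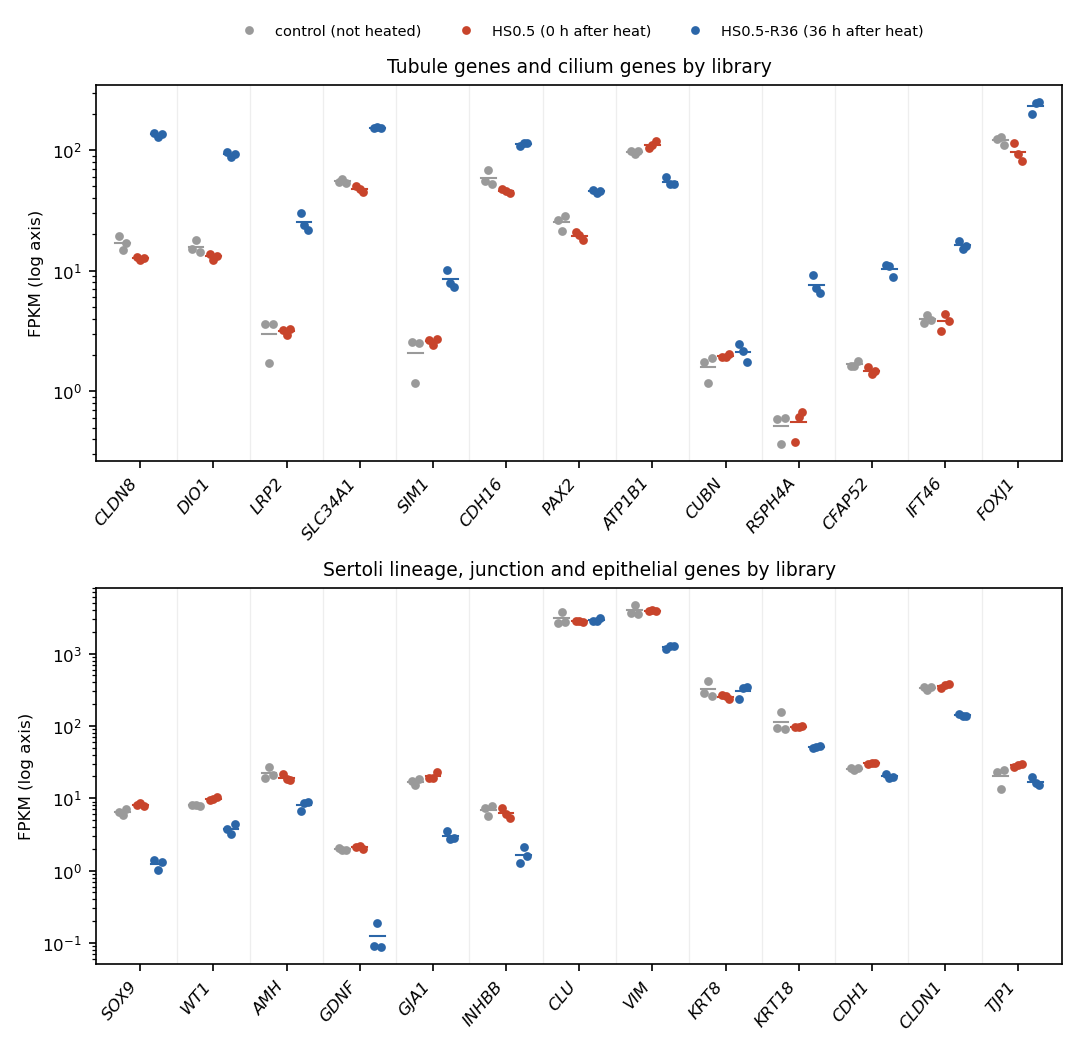
FPKM (log axis) in every library for 9 tubule and 4 cilium genes (top) and 13 Sertoli, junction and epithelial genes (bottom), with points as libraries and bars as means of 3. At 36 h (blue) CLDN8, DIO1, LRP2 and RSPH4A lie 7.03- to 13.8-fold above the end of heat (red) in mean while CUBN overlaps, and SOX9, GDNF and GJA1 lie far below it while KRT8 overlaps.

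Of the 15 largest rises among genes with a symbol and at least 10 FPKM on average at 36 h, CEBPD, a bZIP factor of the acute phase and of differentiation, reached the highest level. It averaged 60.6 FPKM at the end of heat and measured 277, 418 and 441 FPKM at 36 h (difference 2.61 ± 0.19; limma adjusted p = 1.2e-05). HS0.5-R36 replicate 1 was the lowest of the recovery libraries and still lay far above the end of heat. VAV3, an exchange factor for small GTPases, went from 1.90, 1.63 and 1.70 FPKM to a mean of 20.3. FUT1, the fucosyltransferase of the H antigen, rose from 1.95 ± 0.387 to 16.8 ± 1.55 FPKM, YPEL3, a p53-regulated growth suppressor, from 1.12 ± 0.387 to 13.3 ± 0.823, and WNT6, a Wnt ligand, from 0.686 ± 0.0816 to 5.87 ± 0.248. The less well described genes CCDC187, C1orf210, FAM171A2, LRRC10B and FAM214A were also among the 15 largest rises chosen by that rule, with differences of 2.42 to 2.86.

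Of 24 tested interferon-stimulated genes (36 listed), 14 rose and 3 fell, with a median of 0.32, 20 rose and 2 fell after rescaling, and 3 of the 24 passed through the 36 h libraries alone. MX2, a dynamin-like antiviral protein, went from 0.663, 0.609 and 0.530 FPKM to 3.44, 3.31 and 3.38, and IFIT1, which binds foreign RNA, from 0.829 ± 0.158 to 3.64 ± 0.302. ISG15, a ubiquitin-like modifier that is often the most abundant of this group, fell from a mean of 20.7 FPKM to 9.04, 13.4 and 12.9 FPKM.

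**Figure D5:**
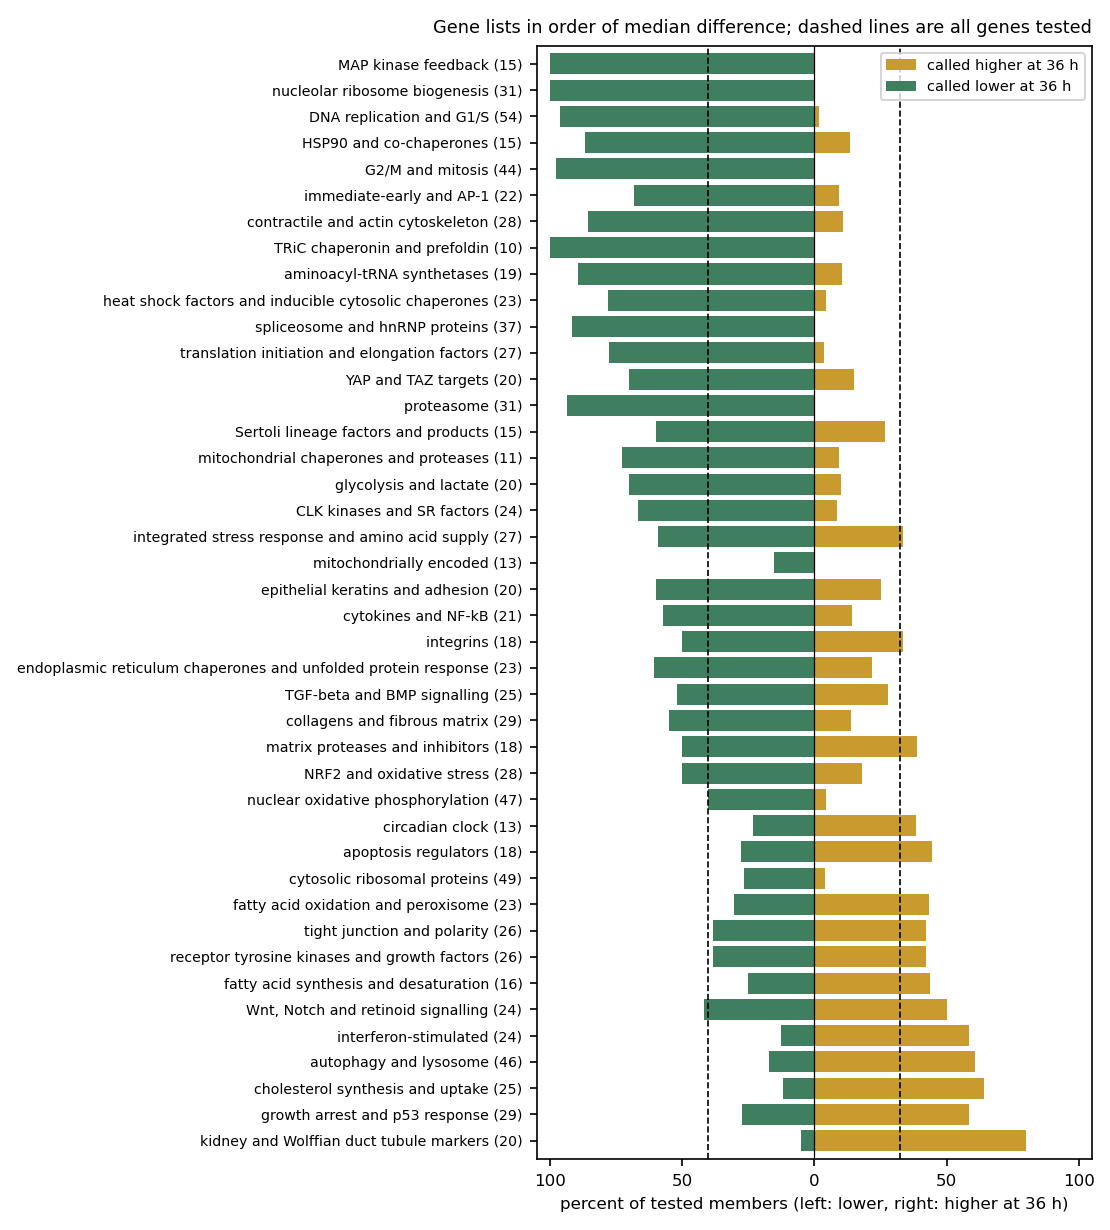
Percent of tested members called higher (right) or lower (left) at 36 h for each list with at least 10 tested members (number in brackets), ordered by median difference. Dashed lines mark all genes tested, 32.5% higher and 40.1% lower: lists of cell division, nucleolus, MAP kinase feedback and chaperonins lie beyond the left line, and those of tubule markers, cholesterol synthesis and autophagy beyond the right line.

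Among genes that are not protein coding, small nucleolar RNAs stood out by direction. Of 161 snoRNA genes tested 78 fell, 55 of them at least 2-fold, and 1 rose, with a median of -0.73, while 82 were not called. The shares were 48.4% lower and 0.621% higher, against 40.1% and 32.5% over all genes. After rescaling 63 fell and 4 rose, and with the trend with gene length removed the median was -0.28, in a class of short genes. SNORD86, a box C/D snoRNA, measured 85.3, 71.0 and 77.7 FPKM at the end of heat and 20.6, 20.7 and 19.7 FPKM at 36 h, and stood at 32.1 ± 5.35 in control. The microRNA precursor gene ssc-mir-6782 measured 319, 307 and 220.0 FPKM and then 18.2, 18.0 and 31.8 FPKM (difference -3.61 ± 0.23; limma adjusted p = 7.4e-06). Both kinds of gene are short and commonly lie within other genes, and the use of strand in counting is not stated in the sources used here, so reads of a host transcript cannot be told apart from theirs. The 29 microRNA precursor genes as a class had 8 rises and 5 falls, with a median of 0.61, and 9 rises and 4 falls after rescaling. The shares, 27.6% higher and 17.2% lower, were both below those over all genes, 32.5% and 40.1%, and 16 of the 29 were not called. Long noncoding RNA genes rose in 133 and fell in 73 of 274 cases, with a median of 0.24, and in 169 and 49 cases after rescaling. With the deposited scaling this was 48.5% higher and 26.6% lower, against 32.5% and 40.1% over all genes. Of the 274, 53 passed the filter through the 36 h libraries alone and 11 through the end-of-heat libraries alone.

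Some genes were listed at 0 in all 3 libraries of a group. FRMD1 had no read in any end-of-heat library and 254 reads over the 3 recovery libraries, at least 64.7-fold higher with a floor of 3 reads over the group. GUCA2B, which encodes the gut and kidney peptide uroguanylin, had 30 reads over the end-of-heat libraries and none at 36 h, at least 13.1-fold lower. The precursor gene ssc-mir-221 had 16 reads and then none, at least 7.03-fold lower. These floors cover counting error only.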

How the data were processed

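Total RNA of 9 libraries was sequenced, and 6 of them, HS0.5 and HS0.5-R36 with 3 each, enter the tests here. Per the submitters' processing notes, bcl2fastq and HISAT2 2.0.5 were used. The authors deposited FPKM per gene with gene lengths. Neither the counting tool nor the genome build is given in the sources used here. Among 12215 genes found by name in the RefSeq table of Sscrofa11.1, 98.9% overlap the gene of that name. Multiplying FPKM by gene length yielded whole numbers of reads, up to 1 constant per library, for 100% of values (tolerance 1e-06). These values carry a scaling between libraries that those sources do not describe. Its relative factors were 0.865 to 0.896 at the end of heat and 1.125 to 1.145 at 36 h. Factors computed from the recovered reads by a trimmed mean of log ratios (TMM) were close, at 0.871 to 0.908 and 1.112 to 1.126. Which method the authors used is not stated. The deposited table names 13457 genes, a reference list added 689 symbols, and 6535 genes had none.

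The main test was limma 3.58.1 in R 4.3.3 on log2(FPKM + 1), with group as the only term and an intensity trend, two-sided, Benjamini-Hochberg adjusted over all 11349 genes, threshold 0.05. The fit was tested on simulated data. Count models were not used on FPKM. Alternatives changed the pseudocount, filter, scaling, fit, weights, length trend and libraries. The members and gene lists were chosen with earlier results of these data known. Genes were named by rule: the 15 largest rises and falls among called genes with a symbol, groups that do not overlap and a mean of at least 10 FPKM in the higher group, up to 4 called members of each list, a set of heat, division, signalling and cell type genes, up to 5 in each direction by the same limits among genes whose deposited biotype is not protein coding and the 5 highest genes listed at 0 in either group. These further genes were chosen after their values were seen: ACTG1, AQP1, ATF4, ATG3, ATP1B1, BBS7, CCN1, CDH16, CFAP300, CFAP52, CFAP91, CLDN1, CLDN10, CLU, CUBN, DNAJB2, EMX2, FOXJ1, GADD45B, HERPUD1, HSP90AB1, HSPA5, IFT172, IFT46, ISG15, KARS1, NBR1, NCL, PAX2, PCNA, PDZK1, QARS1, RBL2, RFX2, RPA3, RPL3, RSPH4A, SESN2, SESN3, SIM1, SLC22A2, SREBF2, THBS1, TJP1, TP53INP1 and TUBB6. Some results are not reported here. No sequence is printed.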

Additional observations from a re-analysis of the deposited data

How the results depend on the processing

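The count of genes called, 8247 of 11349, was 7280 with all 9 libraries in the fit, 8019 after quantile normalization, 8312 with voom on recovered reads and 8355 with the length trend removed. Leaving out each library in turn gave 7570 to 8575, with 3357 to 3880 rises. The rises numbered 2108 (main 3693) with a minimum of 5 FPKM and 5574 after rescaling to the same sum, and the falls 2777 (main 4554) after that rescaling and 2856 after rescaling without mitochondrial and the 20 most abundant genes. A difference of at least 1, chosen after the data were seen, left 1882 genes, 880 higher and 1002 lower. With the replicate block 7556 genes were called. Deviations of libraries with the same number correlated at -0.41, 0.01 and -0.28, so the numbers give no sign of pairing. Of 150 genes followed by name, 141 kept their direction and side of the threshold under all alternatives. CUBN, not called, changed sign after quantile normalization (-0.18) and without HS0.5-R36 replicate 1 (-0.0076, against up to 0.157 without another library), and AQP1, not called, after quantile normalization (-0.16). EMX2, not called, turned positive after quantile normalization, where it passed as a rise (0.27, limma adjusted p = 0.018). It was also positive after rescaling to the same sum (0.21) and rescaling without mitochondrial and top genes (0.18). With library weights (-0.20, limma adjusted p = 0.00481) and with the length trend removed (-0.21, 0.0491) EMX2 passed as a fall. The cause of these changes was not tested. AQP1, CDKN1B, CLU, CUBN, EMX2, JUN, KARS1, KRT8 and RPL3 crossed the threshold under some alternative. Depth limits genes near 1 FPKM, and the scaling applied before deposit limits statements on how many genes rose or fell.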

Other observations

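Genes of cilia, a group formed by symbol after values were seen and described by counts alone, rose in these libraries. Of 33 axoneme genes tested (symbols starting with CFAP, DNAH, DNAI, RSPH, DRC or TEKT), 27 were called higher and 5 lower, with a median difference of 1.06, and 28 and 3 after every library was rescaled to the same sum of FPKM. Of the 33, 12 passed the filter through the 36 h libraries alone. RSPH4A, a radial spoke protein of motile cilia, measured 0.380, 0.612 and 0.671 FPKM at the end of heat and 9.16, 7.21 and 6.57 FPKM at 36 h. CFAP52 went from 1.48 ± 0.0927 to 10.3 ± 1.26 FPKM (SD, n = 3) and CFAP91 from 0.798 ± 0.120 to 6.49 ± 0.723. Of 21 genes of ciliary transport (IFT, BBS and DYNC2 symbols), 17 were called higher and 1 lower, with a median of 0.54, and 19 and 1 after rescaling. IFT46, a subunit of the transport train, went from 3.80 ± 0.618 to 16.3 ± 1.30 FPKM and IFT172, another, from 7.70 ± 0.279 to 18.8 ± 0.140, whereas BBS7, a subunit of the BBSome, went from 16.2 ± 0.644 to 7.88 ± 0.854. FOXJ1, a transcription factor of motile cilia, measured 114, 93.3 and 81.6 FPKM and then 199, 245 and 250.2 FPKM, and RFX2, another, went from 1.98 ± 0.327 to 8.06 ± 0.569. CFAP300 fell, from 8.45 ± 1.85 to 2.78 ± 0.180 FPKM.

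Against 32.5% higher and 40.1% lower over all genes, other families are given with the counts after rescaling beside them. By the family column of the deposited table, 20 of 30 homeobox genes were called higher and 3 lower (rescaled, 23 and 2). Of 24 kinesins 15 were lower and 6 higher (14 and 7), of 23 DEAD-box helicases 20 and 2 (14 and 2), and of 86 RRM proteins 66 and 6 (45 and 15). Solute carriers, with 79 higher and 59 lower among 200, lay near the share over all genes, and became 121 and 44 after rescaling. Mitochondrial ribosomal protein genes were lower in 50 of 66 cases and higher in 3, and in 23 and 9 after rescaling, with medians of -0.44 and -0.10. Loci with no biotype in the deposited table were higher in 131 and lower in 40 of 230 cases, and in 150 and 22 after rescaling. Of the 230, 54 passed the filter through the 36 h libraries alone and 16 through the end-of-heat libraries alone. Of 374 genes over 100 FPKM on average, 216 were called lower and 42 higher, which became 159 and 127 after rescaling. Of 3595 genes at 1 to 5 FPKM, 814 were called lower and 1635 higher, which became 462 and 2203 after rescaling. Of these 3595 genes, 372 passed the filter through the 36 h libraries alone against 77 through the end-of-heat libraries alone.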
